A study of Mus musculus with 9 samples.

Results

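Polyamine synthesis and control genes are described here as the 8 rows of the count table with the symbols Odc1, Srm, Sms, Amd1, Azin1, Oaz1, Oaz2 and Sat1, chosen by name among 24421 gene symbols. All 8 rows were in the table, and 6 of them had enough counts to be tested beside 13270 genes in all. Amd1 and Oaz1 were left out of the tests for low counts. RNA was sequenced in bulk, in 9 libraries, from cultures of mouse bone marrow. The marrow was depleted of lineage-positive cells and expanded for 5 days with SCF, IL-3 and IL-6 into cells that resemble myeloid blasts. The strain background of all 9 is labelled C57BL/6. Of the 3 groups of 3 libraries, one was wild type (WT) with vehicle, one was Tet2-/-Flt3ITD (called mutant below) with vehicle, and one was Tet2-/-Flt3ITD with 24 h of SHP099, an allosteric inhibitor of the phosphatase SHP2. Tet2 encodes an enzyme that oxidises methylated cytosine, and Flt3ITD is an internal tandem duplication allele of a growth factor receptor. No WT culture with SHP099 was analysed here, so the action of the compound is seen in mutant cells only. Each mutant culture was set up from its own mouse and split between vehicle and SHP099. For WT no mouse is named, so the p-values below reflect the spread among these libraries, which may be technical.

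Polyamines are small cations made from ornithine and methionine, and dividing cells need them for protein synthesis and growth. Ornithine decarboxylase (Odc1) makes putrescine, spermidine synthase (Srm) extends it to spermidine, and spermine synthase (Sms) extends that to spermine. S-adenosylmethionine decarboxylase (Amd1) supplies the aminopropyl groups for both extensions. Antizymes (Oaz1, Oaz2) bind ornithine decarboxylase and send it to the proteasome, the antizyme inhibitor (Azin1) binds antizymes and so protects the decarboxylase, and spermidine/spermine acetyltransferase (Sat1) marks polyamines for export or oxidation. Much of this control acts on translation and on protein stability, which RNA counts do not show. Odc1 is a textbook target of the transcription factor MYC.

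The libraries held 27242168 to 45810089 counts each. Tet2 stood at 31.8 to 34.8 CPM (counts scaled to the size of the library) in WT, 14.7 to 17 in mutant vehicle and 10.9 to 13.2 in SHP099-treated cultures. The mutant vehicle libraries were lower than WT by a log2 difference of -1.10 ± 0.0882 (SE; edgeR adjusted p = 0.00013), and the remaining counts do not show which exons they come from. A gene count cannot show the Flt3ITD allele. Of 10 genes induced by ERK signalling and used as feedback outputs, 7 fell with SHP099 and none rose, where 13.0% of all tested genes fell. Their median log2 difference was -0.623 against 0.00361 over all genes tested. In mutant against WT vehicle cells 4 of the 10 fell and none rose, where 14.7% of all genes fell. All 10 were lower in SHP099-treated mutant than in WT vehicle cells, beside 16.3% of all genes. The progenitor markers summed to 12168 to 20383 CPM over the 9 libraries, led by Mpo, while the erythroid markers Hbb-bt and Hba-a1 were at 0 in every library. The ribosomal RNA precursor Rn45s took 4.33% of the counts in SHP099 replicate 3 and 0.276% to 0.734% in the other libraries.

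With SHP099, the breakdown enzyme Sat1 and the antizyme gene Oaz2 rose in mutant cells, by 1.27-fold and 1.21-fold, and Srm fell by a factor of 1.15 (n = 3 libraries a group). In mutant against WT vehicle cells, the synthases Srm and Sms and the antizyme inhibitor Azin1 rose by 1.23-fold, 1.21-fold and 1.18-fold. Odc1, the enzyme that opens the pathway, passed the threshold in neither comparison in this fit of all 9 libraries. A fit of the 6 mutant libraries alone, paired by culture, called Odc1 lower with SHP099 (adjusted p = 0.00568). In SHP099-treated mutant against WT vehicle cells, Sat1 and Azin1 were higher, by 1.27-fold and 1.14-fold. Every one of these differences is below 1.3-fold on the CPM scale.

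Of the 6 tested members, 2 rose and 1 fell with SHP099, where 8.81% of all tested genes rose and 13.0% fell. The fit paired by culture called 2 higher and 3 lower, beside 21.5% and 21.3% of all genes. In mutant against WT vehicle cells 3 rose and none fell, where 16.9% of all genes rose and 14.7% fell. In SHP099-treated mutant against WT vehicle cells 2 rose and none fell, where 15.4% rose and 16.3% fell. The median log2 differences of the 6 members were -0.0942, 0.17 and 0.145 in these comparisons, beside 0.00361, 0.0236 and 0.00494 over all genes. Each pair of these comparisons shares a group of libraries, so their fold changes are not independent and are given side by side only. In bulk RNA a lower level can come from fewer cells of a type or from less RNA per cell, and these cannot be told apart.

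**Figure D1:**
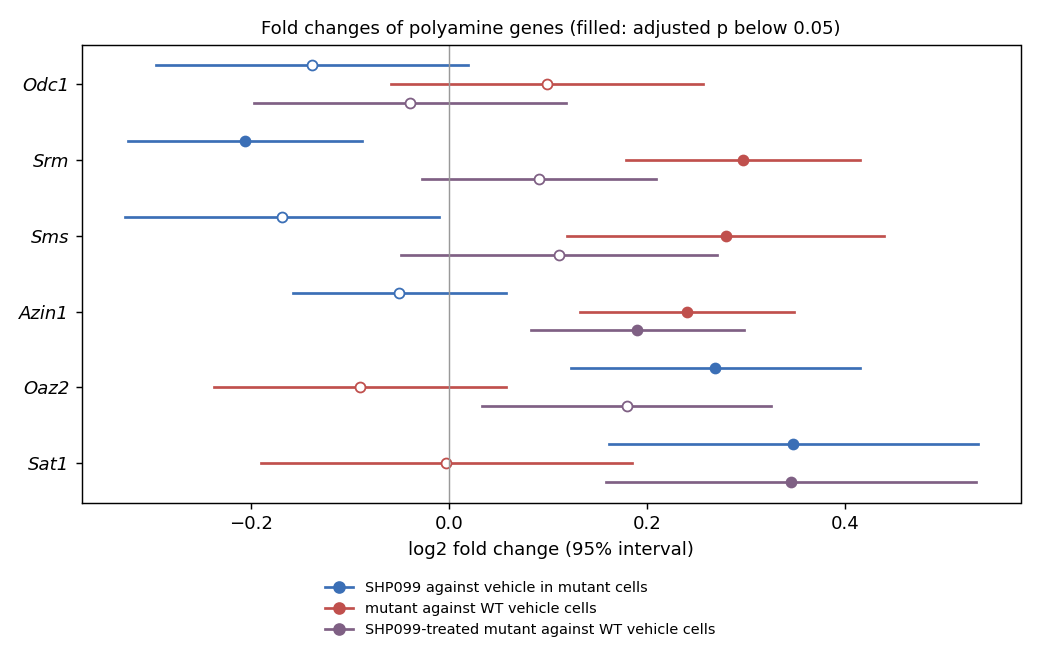
Log2 fold changes of the 6 tested polyamine genes with 95% intervals (horizontal axis) in the 3 comparisons, 3 libraries a group; filled points have an adjusted p below 0.05. With SHP099 (blue) Srm lies below 0 and Oaz2 and Sat1 above it, while against WT (red) Srm, Sms and Azin1 lie above 0 and Sat1 is centred at -0.0026.

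Levels can be compared between genes only per length of transcript. In WT cells Srm stood highest at 182 ± 7.96 CPM per kb of the longest coding transcript (SD, n = 3). Odc1 followed at 114 ± 10.6, Sat1 at 74.1 ± 10.2, Azin1 at 32.6 ± 1.02, Oaz2 at 12.2 ± 0.517 and Sms at 6.84 ± 0.516 CPM per kb. The order was the same in mutant vehicle and SHP099-treated cells, and neighbours in it did not overlap in any of the 3 groups. The gap between Odc1 and Sat1 was narrowest with SHP099, where Odc1 stood at 106 to 114 and Sat1 at 90.8 to 97.8 CPM per kb. The 2 synthases thus lay at opposite ends of the order in these RNA counts, and no protein or metabolite was measured.

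Odc1 (chromosome 12, 17544794 to 17551505, plus strand, GRCm38) encodes the enzyme that commits ornithine to polyamines. Its level in WT replicates 1 to 3 was 239, 236 and 278 CPM. In mutant vehicle cells it was 249, 283 and 275 CPM, and in SHP099-treated cells 234, 246 and 253 CPM. All 3 groups overlapped, with WT replicate 3 standing among the mutant vehicle libraries. The log2 difference with SHP099 was -0.14 ± 0.0704, with a 95% interval of -0.2959 to 0.019 (adjusted p = 0.191). Against WT the mutant vehicle cells differed by 0.10 ± 0.0705, with an interval of -0.0584 to 0.2569 (adjusted p = 0.314). The treated mutant cells differed from WT by -0.04 ± 0.0705, with an interval of -0.1967 to 0.1184 (adjusted p = 0.702). The SHP099 interval includes the change seen in Srm. The numbered mutant cultures were split between vehicle and SHP099, and the ratio of SHP099 to vehicle was below 1 in all 3, at 0.941, 0.871 and 0.919. A fit of these 6 libraries alone with the culture as a block gave -0.14 ± 0.0394 for Odc1 and called it lower (adjusted p = 0.00568), as did the 9-library fit with the length and GC trend removed and the block (-0.19, adjusted p = 0.0343). In the 6-library fit 21.5% of all genes were called higher and 21.3% lower. Of the Odc1 transcript's 100-base stretches, 19.6% also occur in 8 other gene models, so reads from those stretches could be split or dropped by the counting.

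Srm (chromosome 4, 148591503 to 148594993, plus strand, GRCm38) encodes spermidine synthase, and none of its 100-base stretches occur in another gene model. Its level was 232, 247 and 253 CPM in WT libraries, 281, 309 and 310 CPM in mutant vehicle and 256, 252 and 272 CPM in SHP099-treated cells. Every mutant vehicle library was above every WT and every SHP099-treated library, and mutant vehicle replicate 1 was the lowest of its group. Against WT, Srm rose by 0.30 ± 0.0529 on the log2 scale (1.23-fold, adjusted p = 0.0031), and the call held in all 19 alternative settings. With SHP099 it fell by 0.21 ± 0.0527 on the log2 scale (adjusted p = 0.0214). Leaving out mutant vehicle replicate 2 or 3, or SHP099 replicate 1 or 2, ended that call, with adjusted p-values up to 0.094. The culture ratios were 0.912, 0.816 and 0.877. The SHP099-treated cells differed from WT by 0.09 ± 0.0528, with an interval of -0.0266 to 0.2096 (adjusted p = 0.212).

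Sms (chromosome X, 157443855 to 157492287, minus strand, GRCm38) encodes spermine synthase, which adds the last aminopropyl group. It was the one member with the hexamer CACGTG, an E-box that MYC with its partner MAX can bind, in a RefSeq promoter window of 250 bases before to 50 after a gene start. The hexamer reads the same on both strands. Windows were found for 6 of the 8 members (7 windows), Srm and Azin1 being without one, and 1 of the 7 held the motif. Sms also had a window at another start, chrX:157491319-157491618, which did not hold the motif. Over all 32851 windows, 2349 held it (7.15%). For Sms the bases are shown before the start whose window holds the motif, with the E-box in capitals beginning 196 bases before that start. The bases before the start are also shown for Sat1, the member with the largest fold change, whose window holds no such motif. Both are given 5′ to 3′ on the gene's strand from RefSeq, build GRCm38.p6.
Sms, chrX:157492288-157492537, minus strand: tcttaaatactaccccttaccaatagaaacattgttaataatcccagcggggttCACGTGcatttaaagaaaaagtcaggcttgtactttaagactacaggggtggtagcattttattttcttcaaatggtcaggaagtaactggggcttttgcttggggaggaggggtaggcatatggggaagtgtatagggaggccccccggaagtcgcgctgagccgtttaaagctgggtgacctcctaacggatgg
Sat1, chrX:155216450-155216699, minus strand: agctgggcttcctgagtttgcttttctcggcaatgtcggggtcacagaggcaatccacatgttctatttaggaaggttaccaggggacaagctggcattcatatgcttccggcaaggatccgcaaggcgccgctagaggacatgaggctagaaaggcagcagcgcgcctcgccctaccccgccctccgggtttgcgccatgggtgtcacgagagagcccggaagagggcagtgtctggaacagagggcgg
A match of letters is no evidence of binding, and the absence of this hexamer from a window says nothing about the factor.

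Sms stood at 23.4, 25.6 and 27.3 CPM in WT replicates 1 to 3. In mutant vehicle cells it was 30.8, 30.6 and 31.2 CPM, and in SHP099-treated cells 25.7, 29.7 and 27.1 CPM. The mutant vehicle libraries lay within a narrow range above all of the others, while the WT and SHP099-treated libraries overlapped. Against WT, Sms rose by 0.28 ± 0.0715 on the log2 scale (1.21-fold, adjusted p = 0.0156). The call was lost without WT replicate 2 (adjusted p = 0.0519) or mutant vehicle replicate 3 (0.0609), and in the fit of these 2 groups alone with the replicate number as a block (0.0669), a number that does not pair WT with mutant cultures. With SHP099 the log2 difference was -0.17 ± 0.071 (adjusted p = 0.12), although the groups did not overlap. The 6-library fit with the culture as a block called it lower, at -0.17 ± 0.0556 (adjusted p = 0.015). The culture ratios were 0.832, 0.968 and 0.87. The pseudogene Sms-ps shares 27.7% of the 100-base stretches of the Sms transcript.

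Amd1 (chromosome 10, 40287458 to 40302186, minus strand, GRCm38), which supplies the aminopropyl groups, had almost no counts. The counts were 0 in each WT and each SHP099-treated library and 1, 0 and 1 in the mutant vehicle libraries. Of the 100-base stretches of its transcript 76.4% occur in 4 other gene models, foremost its near-copy Amd2 with 73.2%, and Amd2 was itself at 0 in every library. Whether the shared sequence accounts for these counts was not tested, and they are not read as a low level of the transcript.

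**Figure D2:**
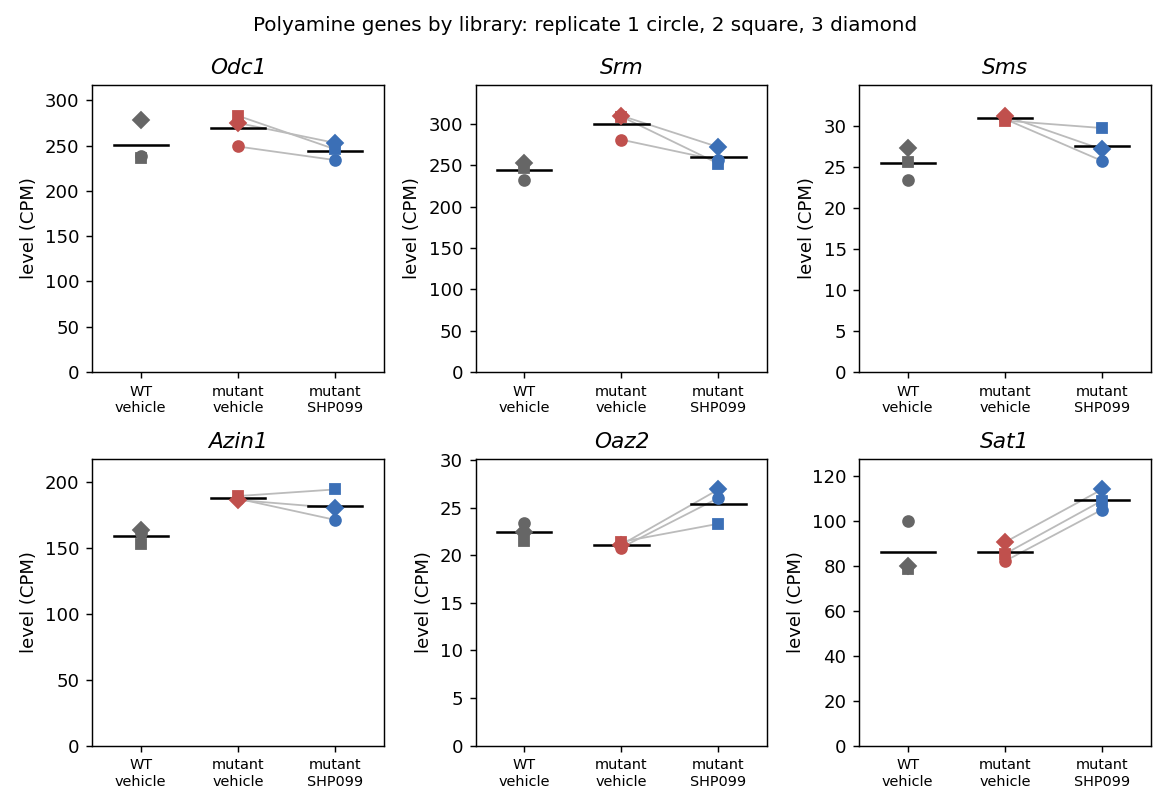
Level in CPM (vertical axis, from 0) of the 6 tested polyamine genes in each library of the 3 groups; black bars are group means, and grey lines join the vehicle and SHP099 libraries of one mutant culture. Sat1 and Oaz2 go up along all 3 lines and Srm, Sms and Odc1 go down along all 3, while Azin1 is lower in 2 cultures and higher in 1.

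Azin1 (chromosome 15, 38487427 to 38519266, minus strand, GRCm38) encodes a relative of ornithine decarboxylase that lacks the enzyme activity and holds antizymes away from it. WT libraries stood at 161, 153 and 163 CPM, mutant vehicle libraries at 187, 189 and 186 CPM and SHP099-treated libraries at 171, 194 and 180 CPM. Both mutant groups lay above WT in every library and overlapped each other. Azin1 rose in mutant against WT vehicle cells by 0.24 ± 0.0482 on the log2 scale (1.18-fold, adjusted p = 0.0053). With the trend of log2 values on transcript length and GC content removed from each library, the difference was 0.10 (adjusted p = 0.0937) and the call was lost. It was also higher in SHP099-treated mutant than in WT cells, by 0.19 ± 0.0481 (1.14-fold, adjusted p = 0.0152), a call lost without WT replicate 2 (0.0564) or SHP099 replicate 3 (0.0545) and in the fit of these 2 groups alone with that block (0.0685). With SHP099 against vehicle the log2 difference was -0.05 ± 0.048, with an interval of -0.1574 to 0.0573 (adjusted p = 0.501). The culture ratios were 0.911, 1.02 and 0.964, which lie on both sides of 1.

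Oaz1 (chromosome 10, 80826656 to 80829290, plus strand, GRCm38), the widely expressed antizyme gene, had 13 counts over the 9 libraries. They were 1, 3 and 1 in WT, 0, 1 and 2 in mutant vehicle and 0, 3 and 2 in SHP099-treated libraries. The pseudogene Oaz1-ps shares 41.8% of the transcript's 100-base stretches and was at 0 in every library, and the exons also overlap the microRNA gene Mir1982 on the same strand. As with Amd1, the part of these overlaps in the counts was not tested, and the counts give no level for the gene.

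Oaz2 (chromosome 9, 65668001 to 65690300, plus strand, GRCm38) encodes another antizyme, which binds ornithine decarboxylase. Its level was 23.4, 21.5 and 22.4 CPM in WT libraries, 20.8, 21.4 and 21.1 CPM in mutant vehicle and 26, 23.3 and 26.9 CPM in SHP099-treated cells. All SHP099-treated libraries were above all mutant vehicle libraries, while SHP099 replicate 2 lay within the WT range. With SHP099, Oaz2 rose by 0.27 ± 0.0653 on the log2 scale (1.21-fold, adjusted p = 0.0171), and the culture ratios were 1.25, 1.09 and 1.28. Leaving out mutant vehicle replicate 1 (adjusted p = 0.0505) or SHP099 replicate 3 (0.0665), the library with the high Rn45s share, ended the call, as did removing the length and GC trend (log2 difference 0.20, adjusted p = 0.0509). Mutant vehicle cells differed from WT by -0.09 ± 0.0658 (adjusted p = 0.332). SHP099-treated cells differed from WT by 0.18 ± 0.0653, with an interval of 0.0339 to 0.3258 (adjusted p = 0.0605).

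Sat1 (chromosome X, 155213132 to 155216449, minus strand, GRCm38) encodes the acetyltransferase that starts polyamine breakdown and export. WT libraries stood at 99.8, 78.7 and 79.9 CPM, mutant vehicle libraries at 82.1, 85.3 and 90.5 CPM and SHP099-treated libraries at 105, 109 and 114 CPM. Every SHP099-treated library was above every vehicle library of either genotype, and WT replicate 1 was the highest of the vehicle libraries. Sat1 rose with SHP099 by 0.35 ± 0.0833 on the log2 scale (1.27-fold, adjusted p = 0.0161). The ratio was nearly the same in each culture, at 1.28, 1.28 and 1.26. SHP099-treated mutant cells were also above WT, by 0.35 ± 0.0834 (1.27-fold, adjusted p = 0.0125), whereas mutant and WT vehicle cells differed by -0.0026 ± 0.0838, with an interval of -0.19 to 0.1849 (adjusted p = 0.987). Leaving out mutant vehicle replicate 1 (adjusted p = 0.0588) or SHP099 replicate 3 (0.0517) ended the SHP099 call of the main fit, which does not pair the cultures. With the length and GC trend removed the SHP099 difference was 0.24 (adjusted p = 0.088) and the difference of treated cells from WT 0.19 (adjusted p = 0.133), neither past the threshold.

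**Figure D3:**
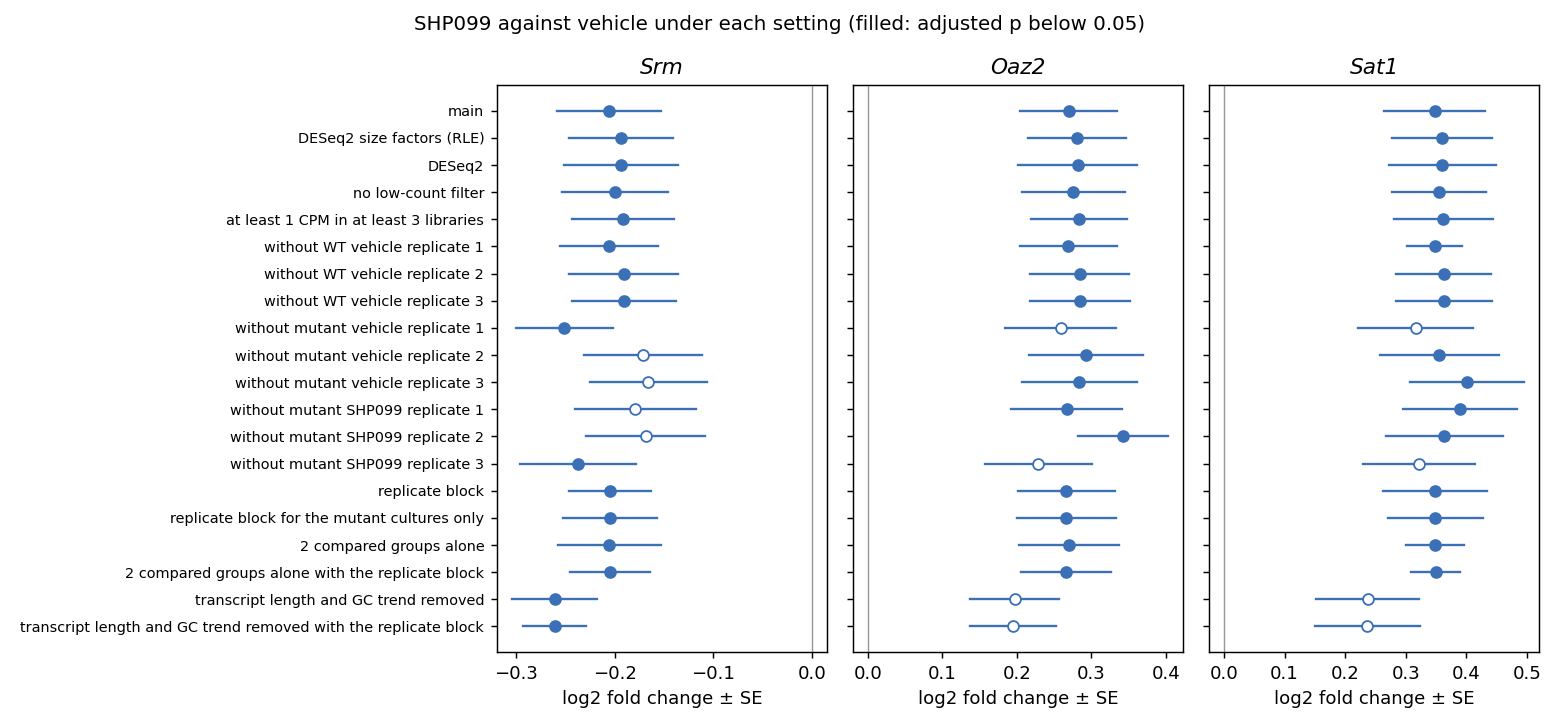
Log2 fold change with SHP099 against vehicle (horizontal axis, ± SE) of Srm, Oaz2 and Sat1 in the reported fit (main) and under each of 19 other settings; filled points have an adjusted p below 0.05. The direction was the same in all of them, and each of the 3 genes lost its call in 4 settings.

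Markers of other cell types moved in the same comparisons. With SHP099, 8.81% of all tested genes rose and 13.0% fell. In mutant against WT vehicle cells 16.9% of all genes rose and 14.7% fell. Neutrophil markers (10 genes, led by S100a9) summed to 24129 to 30551 CPM in WT libraries, 17598 to 18680 CPM in mutant vehicle and 25453 to 30451 CPM in SHP099-treated libraries. With SHP099, 4 of the 10 rose and none fell, and against WT 7 of the 10 fell and 1 rose. Mast cell and basophil markers summed to 1910 to 2142, 991 to 1416 and 1492 to 1940 CPM in these groups, with 4 of 8 up with SHP099 and 6 of 8 down against WT. Megakaryocyte markers summed to 2865 to 3608, 1290 to 1759 and 1583 to 2122 CPM, with 2 of 7 up with SHP099 and all 7 down against WT. Erythroid markers summed to 135 to 197, 55.9 to 83.1 and 76.4 to 97.6 CPM. None of the 5 tested was called with SHP099, and all 5 were down against WT. Monocyte and macrophage markers summed to 937 to 1173, 1086 to 1235 and 1624 to 1662 CPM. Of these 7, 2 were up with SHP099, and 1 was up and 1 down against WT. Of 7 progenitor markers 1 (Cd34) was up with SHP099 and also up against WT, and none was down. The 6-library fit with the culture as a block called more of them higher with SHP099: 10 of 10 neutrophil, 8 of 8 mast cell and basophil, 6 of 7 megakaryocyte, 4 of 5 erythroid and 6 of 7 monocyte and macrophage markers. That fit called 3 of 7 progenitor markers higher and 1 lower, and 21.5% of all genes higher and 21.3% lower. The part of these cell types in the rise of Sat1 and Oaz2 and in the fall of Srm was not tested.

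Genes that feed, drain or use the pathway were taken as 5 lists of 27 genes outside the members, 25 of them tested. With SHP099, 4 of the 25 fell and none rose, where 13.0% of all tested genes fell and 8.81% rose. The 6-library fit with the culture as a block called 7 of 24 lower and 5 higher, beside 21.3% and 21.5% of all genes. Calls added there were Arg1 (-0.42 ± 0.0785, adjusted p = 6e-05), Mat2a (-0.14 ± 0.0393, 0.0035) and Dohh (-0.17 ± 0.0451, 0.0034), which were lower, and Smox, Arg2, Apip, Paox and Azin2, which were higher. In mutant against WT vehicle cells 7 rose and 3 fell, where 16.9% of all genes rose and 14.7% fell. In SHP099-treated mutant against WT vehicle cells 4 rose and 1 fell, beside 15.4% and 16.3%. Several of these shares are near those of all genes, and nothing particular to the lists is read from them. Among the 5 lists, the most calls were in the supply of S-adenosylmethionine and the salvage of methylthioadenosine. Methylthioadenosine is the by-product of the spermidine and spermine synthases. In that list 4 of 7 genes rose against WT and 2 of 7 fell with SHP099. Its median log2 differences were 0.218 and -0.106, beside 0.0236 and 0.00361 over all genes.

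Mtap, the phosphorylase that opens methylthioadenosine salvage, stood at 51.9, 57.3 and 57.9 CPM in WT libraries, 67.7, 74 and 73.9 CPM in mutant vehicle and 54.2, 57.9 and 59.3 CPM in SHP099-treated cells. It rose against WT by 0.37 ± 0.0566 on the log2 scale (adjusted p = 0.0016) and fell with SHP099 by 0.33 ± 0.0562 (adjusted p = 0.0035), and both calls held in all 19 alternatives. Enoph1, a later enzyme of the salvage, averaged 41.5 CPM in WT libraries, 48.2 in mutant vehicle and 41.4 in SHP099-treated cells, with a rise against WT (0.22 ± 0.042, adjusted p = 0.0044) and a fall with SHP099 (-0.22 ± 0.0418, adjusted p = 0.0059). Adi1, which acts after it, averaged 44.6, 55.7 and 52.5 CPM and rose against WT by 0.32 ± 0.0481 (adjusted p = 0.0014). Mat2a, which makes S-adenosylmethionine, averaged 219, 269 and 244 CPM and rose against WT by 0.30 ± 0.054 (adjusted p = 0.0033). Apip, another enzyme of the salvage, was higher in SHP099-treated mutant than in WT cells (0.25 ± 0.058, adjusted p = 0.0112), a call lost with the length and GC trend removed (0.25) or without SHP099 replicate 3 (0.065). Mat2b and Mri1 passed no threshold in the 3 comparisons.

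Of 5 tested genes of ornithine and arginine supply, 2 rose against WT and 1 fell with SHP099, beside 16.9% and 13.0% of all genes. Slc7a1, the cationic amino acid transporter that brings in arginine and ornithine, stood at 181, 177 and 174 CPM in WT. It was 212, 221 and 213 CPM in mutant vehicle and 169, 169 and 158 CPM in SHP099-treated cells. The mutant vehicle libraries were all above the rest. The 19 alternatives kept both the rise of Slc7a1 against WT (0.28 ± 0.039, adjusted p = 0.0011) and its fall with SHP099 (-0.38 ± 0.039, adjusted p = 0.00044). Slc25a15, the mitochondrial ornithine carrier, rose in mutant vehicle cells, to 17.8 CPM against a WT mean of 14.1 CPM (0.33 ± 0.0573, adjusted p = 0.0028) and averaged 17.1 CPM with SHP099. The arginase gene Arg1 ranged from 19 to 52.1 CPM in WT libraries, 6.56 to 27.4 CPM in mutant vehicle and 4.88 to 18.2 CPM in SHP099-treated cells. The SHP099-treated libraries lay below all WT libraries, the other pairs of groups overlapped, and no comparison of Arg1 passed the threshold in the 9-library fit. In that fit Arg2 and Oat were not called either, and Agmat had at most 3 counts in a library.

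Of 7 genes of breakdown and transport, Atp13a3, a polyamine transporter, was called higher against WT and lower with SHP099. Its means were 254, 280 and 248 CPM, and both calls were lost with the length and GC trend removed, where the log2 differences were -0.02 and 0.02. Its rise against WT held in 7 of 19 alternatives and its fall with SHP099 in 14. Spermine oxidase (Smox) stood at 38.7, 41 and 51.9 CPM in WT libraries, 19.9, 30.7 and 24.3 CPM in mutant vehicle and 26.8, 36.9 and 33.8 CPM in SHP099-treated cells. All mutant vehicle libraries were below all WT libraries, and Smox fell against WT by 0.81 ± 0.173 on the log2 scale (adjusted p = 0.007). With SHP099 its difference was 0.38 ± 0.172 (adjusted p = 0.148), with culture ratios of 1.35, 1.2 and 1.39, and the 6-library fit with the block called it higher (0.39 ± 0.0562, adjusted p = 1.8e-06). The acetylpolyamine oxidase Paox, which acts on the products of Sat1, averaged 10.2, 11.3 and 13.1 CPM. It was higher in SHP099-treated mutant than in WT cells (0.36 ± 0.0682, adjusted p = 0.0046) and differed by 0.21 with SHP099 against vehicle (adjusted p = 0.0532, and 0.022 in the 6-library fit with the block). Sat2, Slc18b1, Slc3a2 and Atp13a2 passed no threshold.

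Among relatives of the antizymes and the decarboxylase, Azin2 stood at 3.49, 3.49 and 4.16 CPM in WT libraries, 1.9, 1.38 and 1.59 CPM in mutant vehicle and 2.43, 1.87 and 2.16 CPM in SHP099-treated cells. Azin2 is a second antizyme inhibitor, and all of the mutant libraries were below all WT libraries, the opposite order to Azin1. It fell against WT by 1.20 ± 0.167 on the log2 scale (adjusted p = 0.0011) in vehicle cells, and its difference in treated cells was -0.79 ± 0.161 (adjusted p = 0.0063). Both calls held in all 19 alternatives. Oaz3 was near the floor of detection, with group means of at most 0.356 CPM. The hypusine modification uses spermidine to build an unusual residue on the translation factor eIF5A. Of its 4 genes none changed with SHP099 in the 9-library fit and 1 fell against WT, where 14.7% of all genes fell. Eif5a itself averaged 1361, 1479 and 1449 CPM with no call, and Dhps and Dohh, the enzymes of the modification, were not called in that fit. The gene that fell was the paralog Eif5a2, by 0.39 ± 0.12 on the log2 scale (adjusted p = 0.0322), a call lost without WT replicate 2 or 3 or mutant vehicle replicate 1 or 3 (adjusted p up to 0.10).

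**Figure D4:**
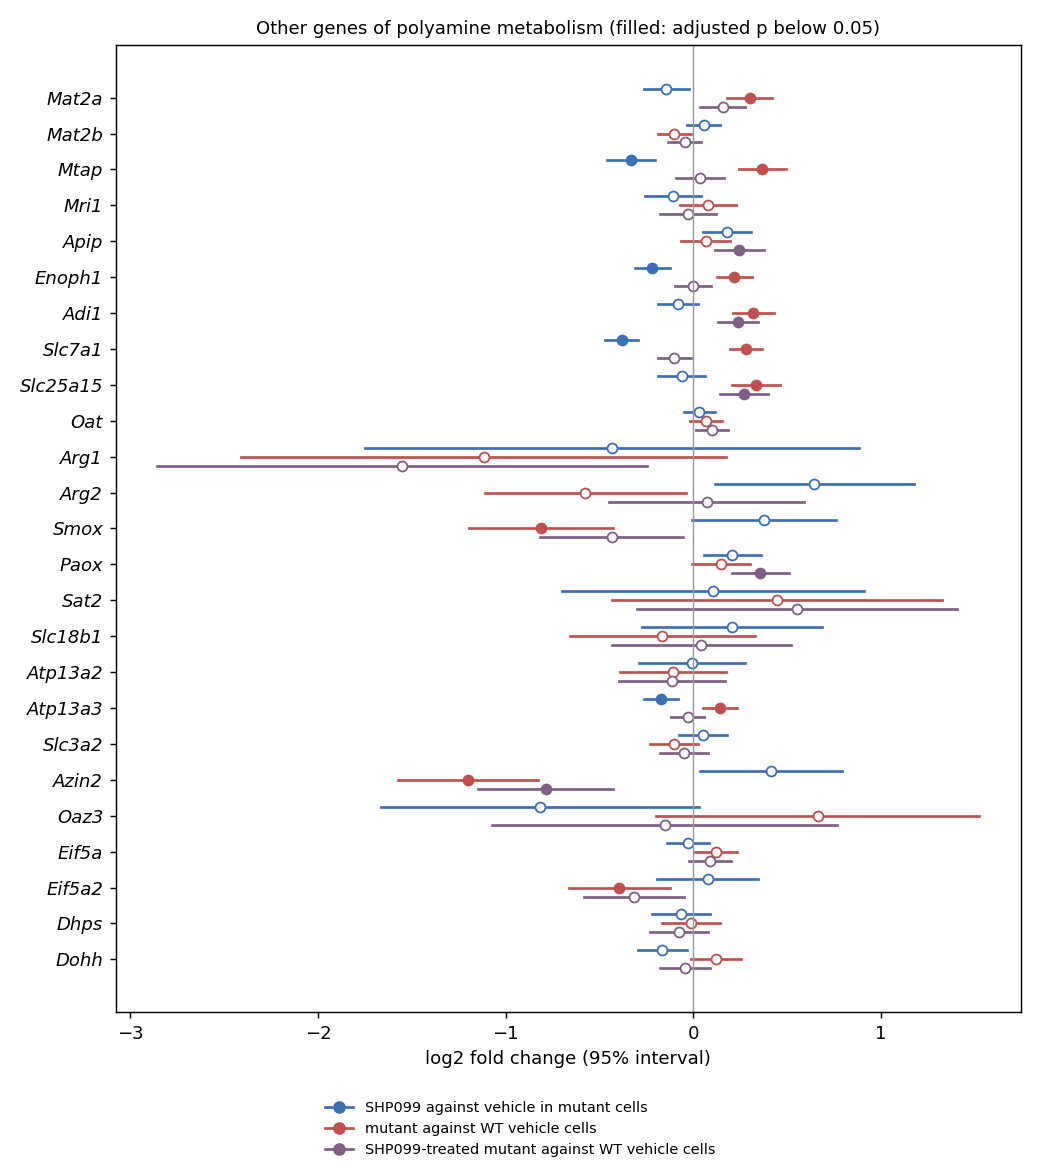
Log2 fold changes with 95% intervals (horizontal axis) of the 25 tested genes of polyamine metabolism outside the 6 members, in the 3 comparisons, 3 libraries a group; filled points have an adjusted p below 0.05. Mtap, Enoph1, Slc7a1 and Atp13a3 have a filled red point above 0 and a filled blue point below it, and Azin2 has the lowest filled point at -1.20.

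Myc, whose protein binds the E-box, stood at 222, 241 and 231 CPM in WT libraries, 340, 311 and 325 CPM in mutant vehicle and 290, 276 and 287 CPM in SHP099-treated cells. The 3 groups did not overlap, with the treated libraries between the vehicle groups. Myc rose against WT by 0.49 ± 0.0461 on the log2 scale (adjusted p = 0.00023) and fell with SHP099 by 0.19 ± 0.0459 (adjusted p = 0.016). Leaving out mutant vehicle replicate 1 or 3, or SHP099 replicate 2 or 3, ended the call of the fall (adjusted p up to 0.086). Of the 9 genes for the MYC family and its partners, 1 rose and 2 fell with SHP099, and 1 rose and 3 fell against WT. Over all tested genes 8.81% rose and 13.0% fell with SHP099, and 16.9% rose and 14.7% fell against WT. Mxd4, which encodes a MAX partner that opposes MYC, fell against WT by 0.52 on the log2 scale (adjusted p = 0.0015) and rose with SHP099 by 0.41 ± 0.0791 (adjusted p = 0.006). Mxd1 and Mxi1, of the same kind, also fell against WT, by 0.50 (adjusted p = 0.0042) and 0.32 (adjusted p = 0.0149) on the log2 scale, the latter lost without WT replicate 1 (0.052). The fall of Mnt with SHP099 (-0.16, adjusted p = 0.0323) held in 7 of 19 alternatives. Whether MYC protein or its partners acted on any polyamine gene was not tested.

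The genes whose log2 CPM followed 3 of the members most closely were sought among 9579 genes with a mean of at least 5 CPM, by Pearson's r over the 9 libraries. Srm was followed by Prmt7 (r = 0.984), Mrps10 (0.978) and Ecsit (0.974). Sat1 was followed by Ndufb4 (0.976), Nsmce1 (0.961) and Hopx (0.959), and Odc1 by Fam195a (0.914), Slc16a6 (0.906) and Atic (0.903). The 9 libraries fall into 3 groups and share normalisation, so these values describe likeness of pattern and carry no test.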

How the data were processed

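Libraries were made from total RNA with a TruSeq stranded mRNA kit, per the labels' protocols. FastQC, STAR, featureCounts, Subread and the build mm10 are named in the submitters' processing notes; versions, annotation release and strand setting were not given in the sources used here. The authors deposited 1 table of raw counts for 24421 gene symbols in 9 columns, all used. The name of 1 column ends in another character than the title of SHP099 replicate 3, to which it was matched by genotype, number and treatment.

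In R 4.3.3 with edgeR 4.0.16, filterByExpr (minimum count 10) left out 11151 genes, TMM scaled the library sizes, and 1 quasi-likelihood model was fitted to all 9 libraries. Two-sided tests were used, with Benjamini-Hochberg adjustment over the 13270 genes of a comparison, and 0.05 was the threshold. Levels are CPM as mean ± SD where an error is given, and errors of log2 differences are SE. The biological coefficient of variation was 9.04%. Libraries of one group differed beyond sampling noise. The chi-square was 116 and 113 times its degrees of freedom in the pairs with SHP099 replicate 3, and 11.1 to 25.8 times in the other pairs.

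Replicate numbers come from the titles. Deviations of mutant vehicle and SHP099 libraries from their group means correlated at 0.543, 0.596 and 0.561 for the same number and at -0.359 to -0.227 for different ones, so the numbers pair these libraries. WT and mutant vehicle libraries of the same number correlated at -0.135 to -0.0721.

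The alternatives were leaving out each library, DESeq2 1.42.0, its size factors in edgeR, a filter of 1 CPM in 3 libraries, no filter, the replicate block, the 2 compared groups alone, both together, and removal of a length and GC trend (lowess span 0.3) without and with the block. A block for the mutant cultures only was added after seeing the data. Fits were first checked on simulated counts.

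Members, lists and tests were chosen with earlier results of these data known. Members are named in each case, as are called genes of the polyamine lists and up to 3 called genes of other lists by smallest p; not all are given here. Coordinates, lengths and shared 100-base stretches are from GENCODE M21 on GRCm38.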

Additional observations from a re-analysis of the deposited data

How the results depend on the processing

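Over the 342 values from 19 alternatives for the 6 tested members in 3 comparisons, 307 kept their direction and their side of the threshold, 22 lost and 5 gained a call, and 8 changed sign, all 8 of them not called. With SHP099, 2 members were called higher and 1 lower. The number higher was 0 with the length and GC trend removed, and 0 with the trend removed and the replicate block. It ran from 0 to 2 with 1 library left out. The number lower was 3 in the 2 compared groups alone with the replicate block, 2 with the trend removed and the block, and 0 to 1 with 1 library left out. In SHP099-treated mutant against WT vehicle cells, where 2 were called higher, the number was 1 in the 2 compared groups alone with the replicate block, 1 with the trend removed and 1 to 3 with 1 library left out. In mutant against WT vehicle cells 3 were called higher. The number was 2 in the 2 compared groups alone with the replicate block, and 2 with the trend removed, without and with the block. It was 2 to 3 with 1 library left out.

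The log2 difference of Azin1 with SHP099 was 0.04722 with the trend removed, 0.04745 with the trend removed and the block, and -0.08564 to 0.007334 with 1 library left out. That of Sat1 in mutant against WT vehicle cells was 0.00345 with no filter, 0.001034 with the replicate block, and -0.0756 to 0.1177 with 1 library left out. That of Odc1 in SHP099-treated mutant against WT vehicle cells was -0.08323 to 0.03602 with 1 library left out. The replicate block over all 9 libraries changed no member's call. The cause of these shifts was not tested. At 3 libraries a group and 27242168 to 45810089 counts each, Amd1 and Oaz1 gave no value.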
